A study of Mus musculus with 15 samples.

Results

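*Rgs1*, *Rgs2*, *Rgs3*, *Rgs10*, *Rgs14*, *Rgs16*, *Rgs18* and *Rgs19* encode regulators of G protein signalling, and their transcript levels were followed here by symbol through both deposited FPKM tables, in which they are 8 of the 20 entries named Rgs and a number. FPKM are fragment numbers scaled to transcript length and to mapped reads, so levels can be set side by side between genes of a library. The tables keep 23846 entries (Ion Proton sequencer) and 23529 entries (NextSeq sequencer), and every one of the 8 genes had a value in all 15 libraries. The 8 genes were picked with results of these libraries in view, and *Rgs18* is named in the study itself. The test values below therefore say where the 8 genes lie in fits across all genes, and they are no independent evidence. The family as a whole, chosen by name, is counted beside them.

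The Ion Proton table holds lung group 2 innate lymphoid cells (ILC2), lymphocytes without antigen receptors that answer tissue alarm signals, from C57BL/6 mice given daily intraperitoneal IL-33 (ILC2IL-33, n = 2) or PBS (ILC2PBS, n = 3). The NextSeq table holds sorted cells from 10BiT Foxp3GFP dual reporter mice, which carry Thy-1.1 in a bacterial artificial chromosome with *Il10* and GFP at *Foxp3*. All of these mice had received IL-33. Lung ILC2 were split into Thy-1.1+ cells (ILC210, n = 3) and Thy-1.1- cells (ILC2act, n = 3), and regulatory T cells of the spleen into IL-10+ (Treg10+, n = 2) and IL-10- (Treg10-, n = 2) cells. Mice were young adults of either sex, cells of several mice were pooled per experiment, ILC2 were gated as CD45+Thy-1.2+Lin-ST2+, and Thy-1.1 reports *Il10* from a transgene rather than from the endogenous locus.

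*Il10* followed the labels, at 103 and 128 FPKM in ILC2IL-33 against 0.153 to 0.711 FPKM in ILC2PBS, at 113 to 155 FPKM in ILC210 against 8.91 to 16.0 FPKM in ILC2act, and at 24.2 and 31.0 FPKM in Treg10+ against 0.572 and 1.06 FPKM in Treg10-. *Foxp3* stayed at or below 0.0955 FPKM in ILC210 and ILC2act and lay between 88.4 and 112 FPKM in Treg cells. Genes of other lung cells stood apart in 2 groups. The summed level of 8 alveolar epithelial markers, all 8 above 1 FPKM in each ILC2 library, was 100 to 176 FPKM in ILC2IL-33 against 4931 to 13964 FPKM in ILC2PBS, and 5548 to 9171 FPKM in ILC210 against 429 to 545 FPKM in ILC2act. The 10 endothelial markers summed to 52.1 to 71.4 FPKM in ILC2IL-33 against 870 to 1781 FPKM in ILC2PBS, and to 474 to 684 FPKM in ILC210 against 73.1 to 74.9 FPKM in ILC2act. The 10 macrophage markers summed to 33.0 to 36.1 FPKM in ILC2IL-33 against 1757 to 3583 FPKM in ILC2PBS, to 635 to 1470 FPKM in ILC210 against 51.2 to 81.3 FPKM in ILC2act, and to 304 to 347 FPKM in Treg10+ against 29.4 to 82.2 FPKM in Treg10-. The Y-linked *Ddx3y* was at 5.47 and 8.25 FPKM in PBS libraries 1 and 2 and at or below 0.153 FPKM in PBS library 3 (titled nA) and both IL-33 libraries. In bulk libraries such as these, fewer cells of a type and less RNA per cell cannot be told apart.

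Receptors coupled to heterotrimeric G proteins, among them the chemokine and sphingosine phosphate receptors that steer lymphocytes, act by loading a G alpha subunit with GTP. RGS proteins carry a domain that binds the active G alpha subunit and speeds GTP hydrolysis, which ends the signal. The R4 subfamily (*Rgs1*, *Rgs2*, *Rgs3*, *Rgs16* and *Rgs18* here) consists mostly of small proteins, the R12 subfamily (*Rgs10* and *Rgs14*) acts on Gi class subunits, and *Rgs19* belongs to the RZ subfamily.

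Of the 20 family genes, 10 lie on chromosome 1, and 4 of the 8 described here are among them. *Rgs2* (chr1:143999338-144004149), *Rgs1* (chr1:144244669-144249104) and *Rgs18* (chr1:144752841-144775421), all on the minus strand of GRCm38, lie within 776084 bp together with *Rgs13*. The entries kept from the NextSeq table hold no other gene in that stretch, and the Ion Proton entries were not searched. *Rgs16* is also on chromosome 1 (chr1:153740353-153745468, plus strand). *Rgs3* lies on chromosome 4 (chr4:62559847-62703019, plus strand), *Rgs10* on chromosome 7 (chr7:128373625-128418172, minus strand), *Rgs14* on chromosome 13 (chr13:55369732-55384687, plus strand) and *Rgs19* on chromosome 2 (chr2:181688423-181693924, minus strand). The longest annotated coding sequence has 211 codons in *Rgs2*, 209 in *Rgs1*, 201 in *Rgs16*, 235 in *Rgs18*, 181 in *Rgs10* and 243 in *Rgs19*, against 547 in *Rgs14* and 966 in *Rgs3*. In the NextSeq libraries the neighbours *Rgs2*, *Rgs1* and *Rgs18* shared an order, highest in ILC2act, then ILC210, and lowest in Treg cells. They differed in ILC2IL-33 against ILC2PBS, where *Rgs1* was higher, *Rgs18* lower and *Rgs2* not called, as the values below show.

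Promoter windows of 5 of the 8 genes are in the RefSeq table for GRCm38.p6, each with 250 bases before and 50 bases from the start site on. Those of *Rgs2*, *Rgs16* and *Rgs10* are shown because these genes had, in that order, the widest gap between ILC2 and Treg cells, a gap after IL-33, and the opposite order of the cell types. Capitals mark matches, on either strand, to the GC box GGGCGG, the CCAAT box CCAAT or the cAMP response element core TGACG.
*Rgs2* promoter, chr1:144004100-144004399, minus strand: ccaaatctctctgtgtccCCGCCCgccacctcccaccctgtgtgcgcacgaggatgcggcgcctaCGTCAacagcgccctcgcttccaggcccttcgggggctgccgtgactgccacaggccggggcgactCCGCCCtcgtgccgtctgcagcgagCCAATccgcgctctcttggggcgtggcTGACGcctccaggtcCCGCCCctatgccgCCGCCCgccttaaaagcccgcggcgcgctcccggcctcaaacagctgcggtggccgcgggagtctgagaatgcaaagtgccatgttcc
*Rgs16* promoter, chr1:153740103-153740402, plus strand: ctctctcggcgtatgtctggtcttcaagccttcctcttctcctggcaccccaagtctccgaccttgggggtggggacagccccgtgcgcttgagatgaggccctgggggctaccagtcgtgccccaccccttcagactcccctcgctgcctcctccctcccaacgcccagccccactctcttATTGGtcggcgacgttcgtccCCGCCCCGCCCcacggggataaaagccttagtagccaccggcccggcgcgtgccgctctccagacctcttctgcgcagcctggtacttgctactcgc
*Rgs10* promoter, chr7:128418123-128418422, minus strand: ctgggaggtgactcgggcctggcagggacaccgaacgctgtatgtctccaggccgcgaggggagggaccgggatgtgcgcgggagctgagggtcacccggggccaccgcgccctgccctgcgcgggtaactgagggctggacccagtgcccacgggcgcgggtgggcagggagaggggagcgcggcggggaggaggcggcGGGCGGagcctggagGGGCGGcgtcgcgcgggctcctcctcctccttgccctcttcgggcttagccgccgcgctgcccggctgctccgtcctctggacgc
The *Rgs2* window holds 4 GC boxes, 1 CCAAT box and 2 TGACG matches, the *Rgs16* window 2 GC boxes that overlap by 1 base and 1 CCAAT box, and the *Rgs10* window 2 GC boxes. Of 32851 windows of this length in the table, 35.7% hold a GC box, 37.4% a CCAAT box and 20.8% TGACG. G and C make up 70% of the *Rgs2* window, 66% of the *Rgs16* window and 76% of the *Rgs10* window. The median over all windows is 52.7%, so these shares are not matched for base composition. No window of the 3 holds the full element TGACGTCA (1.79% of all windows), the AP-1 motif TGANTCA (7.81%), the NF-kB motif (1.2%), the GATA motif AGATAA (11.2%) or TATAAA (13.6%). The windows not shown are those of *Rgs3* and *Rgs19*. Both *Rgs3* windows hold TATAAA and window 2 of *Rgs3* also holds AGATAA, while the *Rgs19* windows hold none of these motifs. A match is a description of letters and not a bound site.

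The 8 genes made up nearly all of the family's signal, but in a different mix in each cell type. In ILC2 of both tables *Rgs1* and *Rgs2* were the most abundant. *Rgs1* gave 48.0 and 50.9% of the summed family FPKM in ILC2IL-33, against 16.0 to 22.6% in ILC2PBS, while *Rgs2* gave 31.9 and 35.8% in ILC2IL-33 against 45.7 to 56.4% in ILC2PBS. *Rgs1* gave 58.7 to 65.6% in ILC210 and 58.2 to 63.4% in ILC2act. In Treg cells the largest share belonged to *Rgs10*, with 27.3 and 28.1% in Treg10+ against 38.7 and 42.0% in Treg10-, and *Rgs2* gave no more than 0.547%. The summed family signal was 1584 and 1907 FPKM in ILC2IL-33 against 810 to 1031 FPKM in ILC2PBS, and 913 to 1151 FPKM in ILC210, 1460 to 1595 FPKM in ILC2act, 397 and 431 FPKM in Treg10+ and 498 and 592 FPKM in Treg10-.

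**Figure D1:**
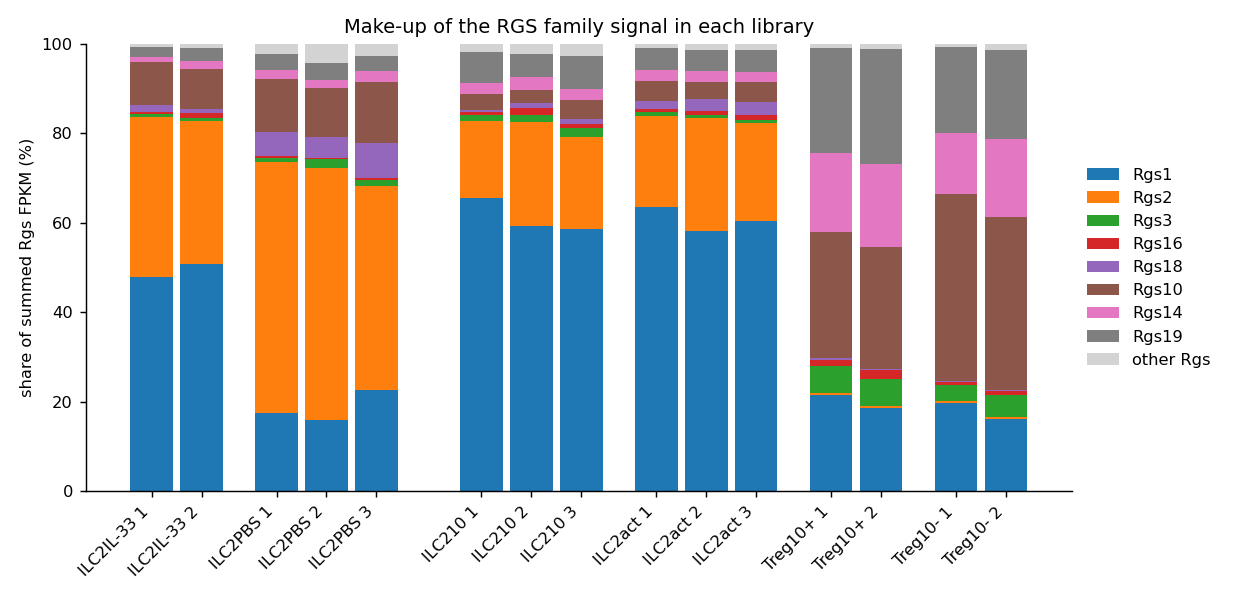
Share of the summed FPKM of the 20 Rgs genes (y axis, %) held by each of the 8 genes and by the other 12 together, 1 bar per library. *Rgs1* and *Rgs2* fill most of every ILC2 bar, and *Rgs10*, *Rgs19* and *Rgs14* fill most of every Treg bar.

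Levels within ILC2act ran from *Rgs1* through *Rgs2*, *Rgs19* and *Rgs10* to *Rgs18* and *Rgs14*, whose ranges overlapped, and to *Rgs16* and *Rgs3*, whose ranges also overlapped. Levels within Treg10- began with *Rgs10*, followed by *Rgs19*, *Rgs1* and *Rgs14*, where the *Rgs1* range overlapped both others, then *Rgs3*, *Rgs16*, *Rgs2* and *Rgs18*.

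Fits with limma on log2 FPKM floored at 1 called a gene where the adjusted p was under 0.05 and the difference at least 2-fold. Which RGS genes differ in activated ILC2 was asked with ILC2IL-33 against ILC2PBS. Of the 8 genes, 2 were higher, *Rgs1* and *Rgs16*, and 1 was lower, *Rgs18*, where 26.3% of all 12565 genes tested were called (8.22% higher and 18% lower). For 5 of the 8 the groups did not overlap, as for 59.8% of all genes. The median log2 fold change was 0.35 over the 8 and -0.06 over all genes. Over the whole family, 12 of 20 genes passed the filter on low values, and the same 3 were called.

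How the *Il10* reporter-positive ILC2 differ was asked with ILC210 against ILC2act. *Rgs18* was the 1 gene of the 8 that was called, as lower, where 10.3% of 11564 genes were called (9.24% higher and 1.05% lower). A further 5 had an adjusted p under 0.05 with a fold under 2, lower for *Rgs1*, *Rgs2*, *Rgs10* and *Rgs14* and higher for *Rgs3*. Over the family, 11 genes were tested, with 1 higher (*Rgs4*, with every ILC2act value at the floor) and 1 lower. The groups did not overlap for 6 of the 8, against 32.6% of all genes, and the median log2 fold change of the 8 was -0.48, against 0.03 over all genes. Equal scaling of medians or quantiles moved the median of all genes to -0.11 and -0.12 here and to 0.12 and 0.13 in the IL-33 comparison, and no direction of the 8 turned in either. The share of calls that were higher moved with it, at 85% with equal medians and 74% with quantiles against 89.8% as reported for ILC210 against ILC2act, and at 42.2 and 47.8% against 31.3% for ILC2IL-33 against ILC2PBS.

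In Treg10+ against Treg10- none of the 8 was called by limma, where 1.37% of 10837 genes were called (0.904% higher and 0.461% lower), although 2 of the 8 had an unadjusted p under 0.05. An equal-variance test of each gene called 0 of all genes there, so its 0 among the 8 was fixed in advance and adds nothing to the limma result. Over the family limma called 0 of 11, with 3 at an unadjusted p under 0.05. The groups did not overlap for 5 of the 8, against 43% of all genes. Between cell types, 7 of the 8 were called in ILC2act against Treg10-, 4 higher and 3 lower, where 18.2% of 11308 genes were called (8.72% higher and 9.46% lower). In ILC210 against Treg10+ 5 of the 8 were called, 3 higher and 2 lower, where 19.5% of 12181 genes were called (12.3% higher and 7.2% lower, a share of higher calls of 63.1% that quantile scaling moved to 51%). The groups did not overlap for all 8 in both comparisons, against 60.5% of all genes in ILC2act against Treg10- and 58% in ILC210 against Treg10+. Over the family, 5 of 11 were higher and 3 lower in ILC2act against Treg10-, and 5 of 11 higher and 2 lower in ILC210 against Treg10+. The higher calls in ILC210 against Treg10+ include *Rgs4*, whose Treg10+ values were all at the floor. Those in ILC2act against Treg10- include *Rgs18*, whose Treg10- values were all at the floor. ILC2 came from lung and Treg cells from spleen, so cell type and organ cannot be told apart. These comparisons share libraries with those within the cell types, and the values of each are given side by side.

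**Figure D2:**
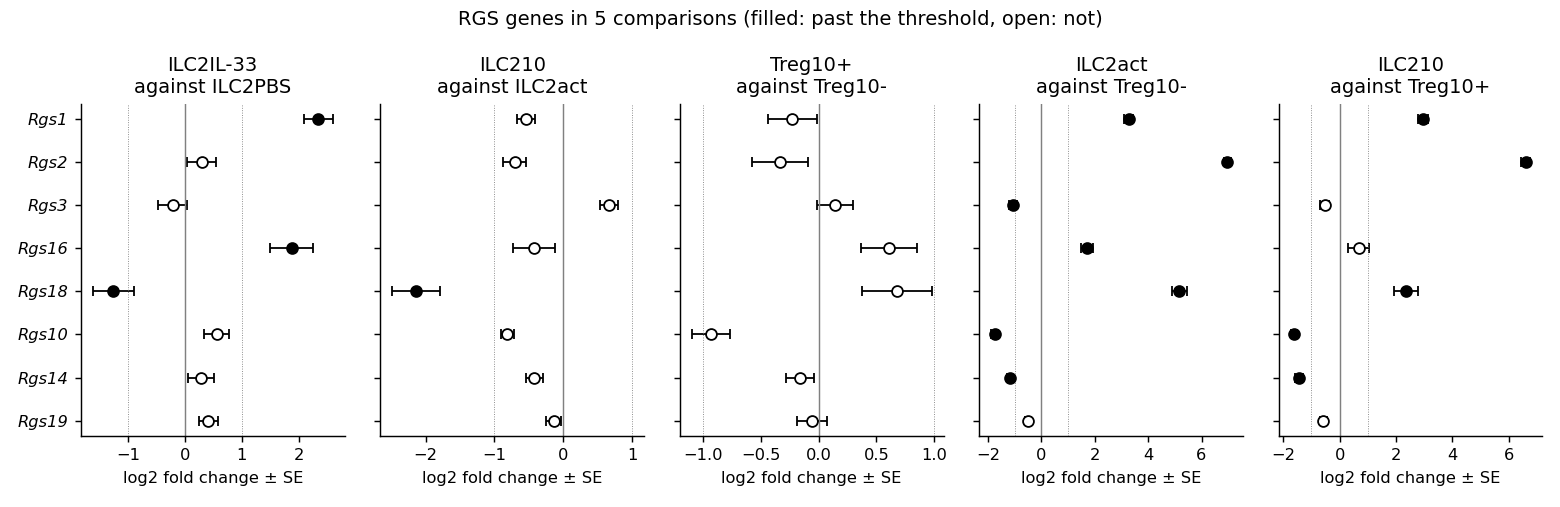
Log2 fold change with its SE (x axis, a different range in each panel) of the 8 genes (rows) in 5 comparisons, first-named group over second-named. Filled points were called, and dotted lines mark a fold of 2. *Rgs18* lies left of zero in both panels within ILC2 and right of it in both panels of ILC2 against Treg cells.

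*Rgs1*, which limits chemokine-driven migration of lymphocytes, was the most abundant RGS transcript of activated ILC2. It was at 915 and 806 FPKM in ILC2IL-33, against 179, 129 and 207 FPKM in ILC2PBS. The lowest IL-33 library lay far above the highest PBS library, and the log2 fold change was 2.35 ± 0.25 (SE, adjusted p = 0.000362 from limma), a 5.09-fold difference. Without the PBS libraries 1 and 2, a setting added after the values were seen that leaves 1 PBS library assumed to vary like the others, it was 2.05. In the reporter mice *Rgs1* was at 729, 683 and 536 FPKM in ILC210, against 926, 917 and 964 FPKM in ILC2act. All ILC210 libraries lay below all ILC2act libraries, by a log2 fold change of -0.54 ± 0.14 (SE, adjusted p = 0.027), which is under the fold of 2. Treg cells had 92.9 and 73.8 FPKM in Treg10+ and 117 and 80.3 FPKM in Treg10-, with overlapping groups and a log2 fold change of -0.23 ± 0.21. *Rgs1* was 9.65-fold higher in ILC2act than in Treg10- (log2 3.27 ± 0.17, adjusted p = 1.82e-05) and 7.78-fold higher in ILC210 than in Treg10+ (log2 2.96 ± 0.18, adjusted p = 5.03e-05).

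*Rgs2*, a regulator that acts mainly on Gq class subunits, was abundant in every ILC2 library and scarce in every Treg library. It was at 682 and 506 FPKM in ILC2IL-33, against 578, 457 and 418 FPKM in ILC2PBS. The groups overlapped, and the log2 fold change of 0.29 ± 0.26 (SE) had an adjusted p of 0.417. In the reporter mice it was at 191, 267 and 188 FPKM in ILC210, against 299, 398 and 350 FPKM in ILC2act. Every ILC210 library lay below every ILC2act library, by a log2 fold change of -0.71 ± 0.16 (SE, adjusted p = 0.0172), which is under the fold of 2. Treg cells had 2.26 and 2.14 FPKM in Treg10+, against 2.83 and 2.72 FPKM in Treg10- (log2 -0.34 ± 0.24, adjusted p = 0.624). *Rgs2* thus had the widest gap of the 8 between the cell types, 125-fold in ILC2act against Treg10- (log2 6.97 ± 0.14, adjusted p = 4.11e-07) and 96.7-fold in ILC210 against Treg10+ (log2 6.59 ± 0.17, adjusted p = 2e-06). Its promoter window is the one above with 4 GC boxes and 2 TGACG matches, and a link of these matches to its level was not tested.

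**Figure D3:**
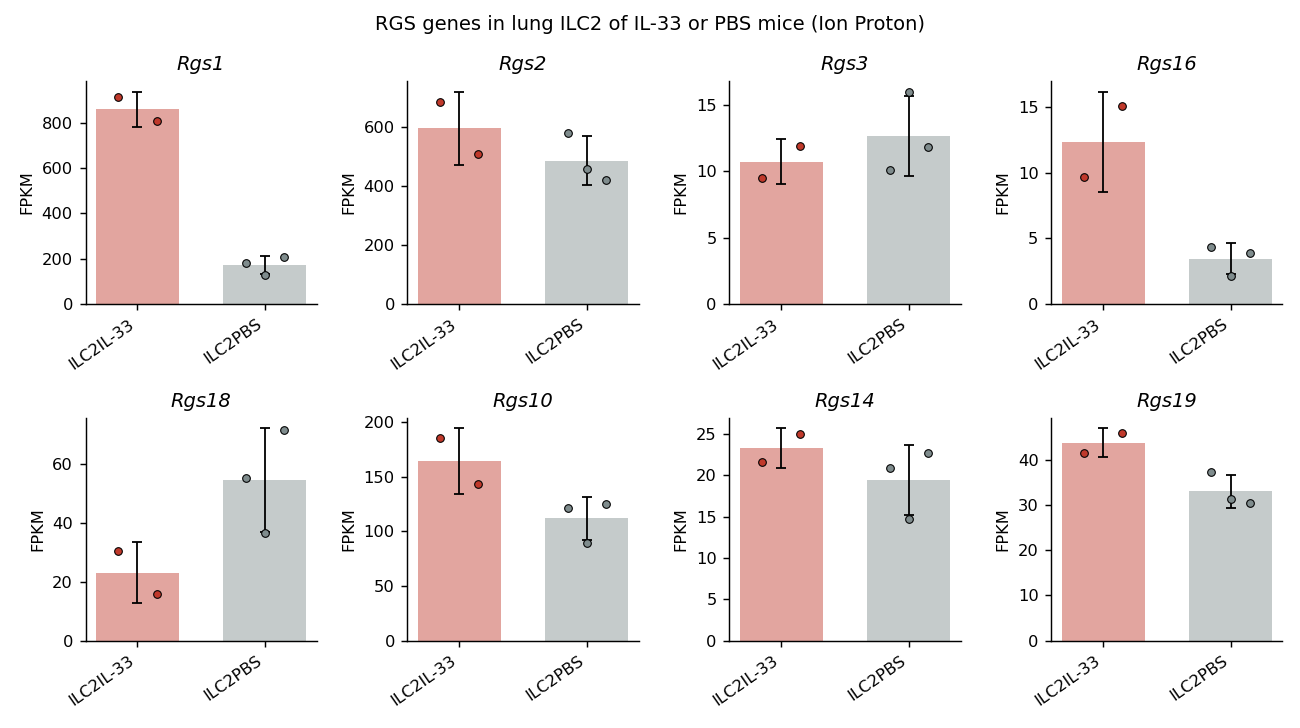
FPKM (y axes from 0, a range for each gene) of the 8 genes in ILC2IL-33 (n = 2) and ILC2PBS (n = 3). Points are libraries, bars are means and error bars are SD. *Rgs1* and *Rgs16* are higher and *Rgs18* is lower in both ILC2IL-33 libraries than in every ILC2PBS library.

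*Rgs16*, an R4 member that acts on Gi and Gq class subunits and is known in activated T cells, was scarce in ILC2PBS. It was at 9.67 and 15.1 FPKM in ILC2IL-33, against 4.35, 2.11 and 3.88 FPKM in ILC2PBS. There was no overlap, with a log2 fold change of 1.88 ± 0.38 (SE, adjusted p = 0.00749 from limma), a 3.67-fold difference. The call rested on IL-33 library 2 (titled Expand), without which the log2 fold change was 1.56 with an adjusted p of 0.0709. Without the PBS libraries 1 and 2 it was 1.64. ILC210 had 7.87, 18.04 and 8.59 FPKM, against 11.0, 16.0 and 16.8 FPKM in ILC2act, so the groups overlapped (log2 -0.42 ± 0.31, adjusted p = 0.447). Treg10+ had 5.94 and 7.54 FPKM, against 4.31 and 4.46 FPKM in Treg10-, without overlap but with an adjusted p of 0.331 (log2 0.61 ± 0.24). *Rgs16* was higher in ILC2act than in Treg10- (log2 1.71 ± 0.22, adjusted p = 0.00106) and was not called in ILC210 against Treg10+ (log2 0.67 ± 0.37, adjusted p = 0.21). The ILC2 change minus the Treg change was -1.04 ± 0.48 (adjusted p = 0.267), and without ILC210 library 2 it was -1.41 with an adjusted p of 0.0251.

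*Rgs18*, best known from platelets and megakaryocytes, was lower after IL-33 and lower again in the reporter-positive ILC2. It was at 30.3 and 15.7 FPKM in ILC2IL-33, against 55.4, 36.4 and 71.7 FPKM in ILC2PBS. The groups did not overlap, and the log2 fold change was -1.27 ± 0.36 (SE, adjusted p = 0.0305 from limma). That call was lost without IL-33 library 2 (log2 -0.79, adjusted p = 0.191), without PBS library 1 (log2 -1.23, adjusted p = 0.0872) and without PBS library 3 (log2 -1.04, adjusted p = 0.0605). With no filter on low values the adjusted p was 0.169 for *Rgs18* and 0.0725 for *Rgs16*. Without PBS libraries 1 and 2 together it was -1.72. In the reporter mice *Rgs18* was at 4.85, 12.6 and 8.85 FPKM in ILC210, against 24.4, 40.4 and 46.4 FPKM in ILC2act. The highest ILC210 library lay below the lowest ILC2act library, and the log2 fold change was -2.14 ± 0.35 (SE, adjusted p = 0.00304), a 4.39-fold difference. It was called whichever of the 6 libraries was left out, and was lost with no filter on low values (adjusted p = 0.0775) and in the equal-variance test (adjusted p = 0.142).

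Platelet markers ran opposite to *Rgs18* in ILC210 against ILC2act, and their part was not tested. All 10 of them summed to 7.85 to 10.5 FPKM in ILC210, against 2.16 to 2.47 FPKM in ILC2act. In each ILC2act library 0 or 1 of the markers was above 1 FPKM and 3 to 5 were listed at 0. *Pf4*, the platelet chemokine gene, was at 3.17 to 5.72 FPKM in ILC210 against 0.803 to 1.77 FPKM in ILC2act. In Treg cells the sum was 5.69 and 6.42 FPKM in Treg10+ against 2.48 and 6.57 FPKM in Treg10-, and Treg10- library 1 was the lowest in both the sum and *Rgs18*. In the IL-33 comparison the sum was 2.17 and 3.33 FPKM in ILC2IL-33 against 16.3 to 27.4 FPKM in ILC2PBS, the same direction as *Rgs18*, and its part in that difference was not tested. The markers of alveolar, endothelial and macrophage cells given above ran opposite to *Rgs18* in ILC210 against ILC2act, and their part was not tested.

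**Figure D4:**
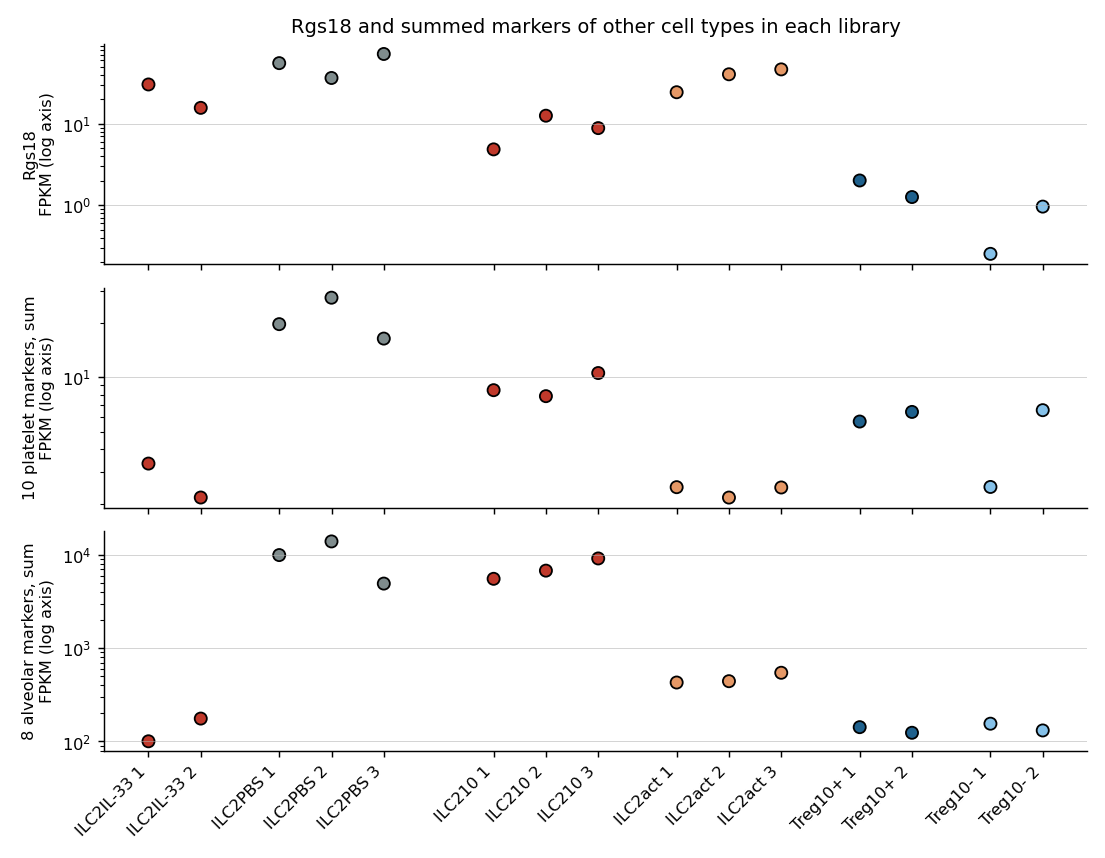
FPKM on log axes of *Rgs18* (top), of 10 platelet and megakaryocyte markers summed (middle) and of 8 alveolar epithelial markers summed (bottom), 1 point per library. In ILC2act *Rgs18* is at 24.4 to 46.4 FPKM while the platelet sum is at 2.16 to 2.47 FPKM.

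In Treg cells *Rgs18* lay near the floor, at 2.02 and 1.26 FPKM in Treg10+ against 0.254 and 0.965 FPKM in Treg10-. Both values of Treg10- were below 1 FPKM and were set to 1, so folds against them are understated. On that scale *Rgs18* was 35.8-fold higher in ILC2act than in Treg10- (log2 5.16 ± 0.28, adjusted p = 2.29e-05) and 5.10-fold higher in ILC210 than in Treg10+ (log2 2.35 ± 0.42, adjusted p = 0.00599). *Rgs18* entered the fit of ILC2act against Treg10- only through ILC2act, the group in which it is high. The p-value of that fit is no evidence beyond the levels themselves. The reporter difference itself was compared between the cell types in a fit of the 10 NextSeq libraries. *Rgs18* was the 1 gene of the 8 past an adjusted p of 0.05, with a difference of -2.81 ± 0.57 on the log2 scale (adjusted p = 0.0111), where 9.37% of 12475 genes passed (7.01% higher and 2.36% lower). Over the family 2 of 12 passed, *Rgs18* and, on values mostly at the floor, *Rgs11*. It was lost without Treg10+ library 1 (-2.47, adjusted p = 0.065) and without Treg10- library 1 (-2.81, adjusted p = 0.0505).

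*Rgs3*, an R4 member with several isoforms, was higher in Treg cells than in ILC2act. It was at 9.54 and 11.9 FPKM in ILC2IL-33, against 10.1, 16.0 and 11.8 FPKM in ILC2PBS, with overlapping groups (log2 -0.22 ± 0.25, adjusted p = 0.534). It was at 14.9, 19.4 and 17.6 FPKM in ILC210, against 11.3, 10.4 and 11.0 FPKM in ILC2act. Those ranges lay apart, and *Rgs3* was the 1 gene of the 8 with a positive log2 fold change there, 0.66 ± 0.13 (SE, adjusted p = 0.00867 from limma), under the fold of 2. Treg cells had 25.8 and 24.2 FPKM in Treg10+ and 21.0 and 24.5 FPKM in Treg10- (log2 0.14 ± 0.15). *Rgs3* was lower in ILC2act than in Treg10- (log2 -1.06 ± 0.14, adjusted p = 0.0011), just past the fold of 2, and without Treg10- library 2 it was at -0.95 and not called. In ILC210 against Treg10+ it was at -0.54 ± 0.15 (adjusted p = 0.0334), under the fold.

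*Rgs10*, a small R12 member that acts on Gi class subunits, was the main RGS transcript of Treg cells. It was at 185 and 143 FPKM in ILC2IL-33, against 121, 89.5 and 125 FPKM in ILC2PBS, without overlap and with a log2 fold change of 0.55 ± 0.22 that was not called (adjusted p = 0.0927). It was at 39.8, 34.0 and 38.5 FPKM in ILC210, against 65.7, 61.6 and 69.7 FPKM in ILC2act. The groups lay well apart with little spread within them (log2 -0.81 ± 0.10, adjusted p = 0.00055 from limma), at a 1.76-fold difference. In Treg cells it was at 121 and 108 FPKM in Treg10+, against 248 and 193 FPKM in Treg10-. The groups did not overlap, and the log2 fold change of -0.93 ± 0.17 had an adjusted p of 0.0572. That value passed both thresholds without Treg10+ library 1 (log2 -1.01, adjusted p = 0.00126) and without Treg10- library 2 (log2 -1.12, adjusted p = 0.0113). Macrophage markers were higher in Treg10+, as given above, and their part was not tested. The difference between the ILC2 and the Treg change was 0.12 ± 0.18 (adjusted p = 0.8). *Rgs10* was lower in ILC2act than in Treg10- (log2 -1.74 ± 0.13, adjusted p = 0.000103) and lower in ILC210 than in Treg10+ (log2 -1.62 ± 0.12, adjusted p = 0.00011). The 4 NextSeq groups thus had no overlap, in the order Treg10-, Treg10+, ILC2act, ILC210.

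**Figure D5:**
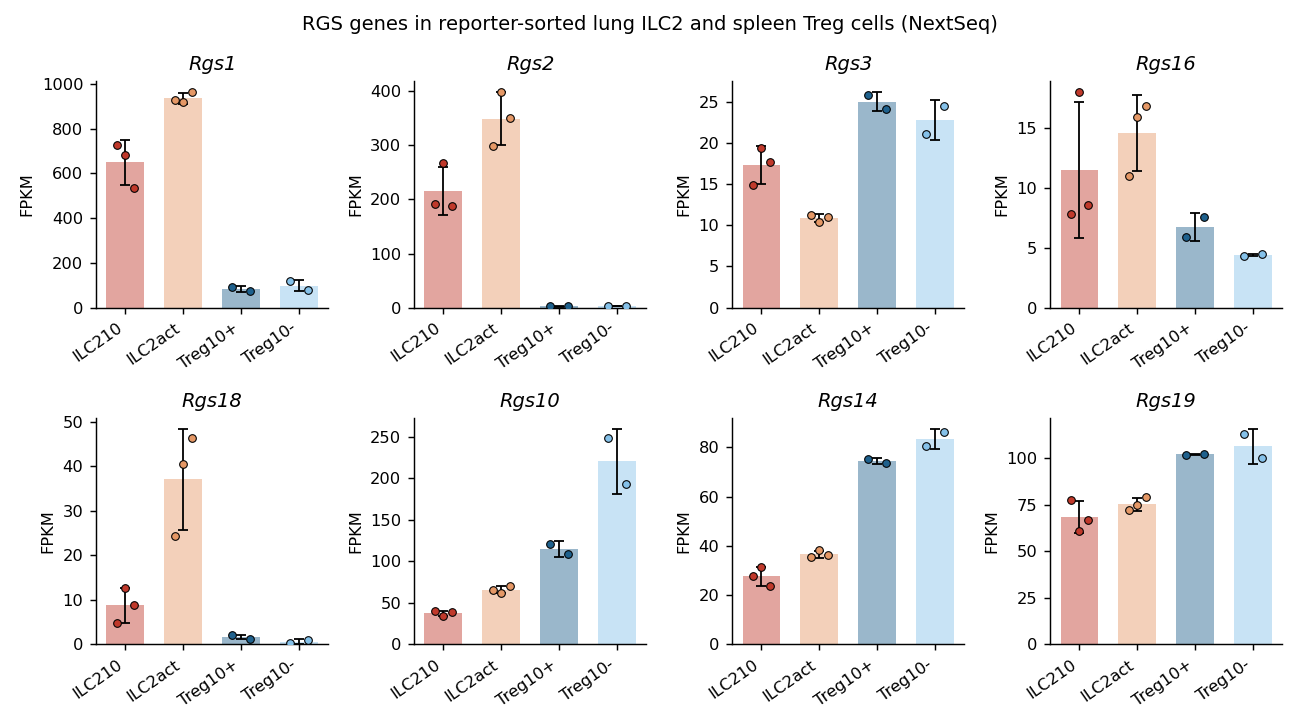
FPKM (y axes from 0, a range for each gene) of the 8 genes in ILC210 (n = 3), ILC2act (n = 3), Treg10+ (n = 2) and Treg10- (n = 2). Points are libraries, bars are means and error bars are SD. *Rgs1*, *Rgs2* and *Rgs18* are highest in ILC2act, and *Rgs10*, *Rgs14* and *Rgs19* are higher in every Treg library than in every ILC2 library.

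*Rgs14*, an R12 member that also binds Ras family GTPases, had the same order at a narrower range. It was at 21.6 and 25.0 FPKM in ILC2IL-33, against 20.9, 14.7 and 22.6 FPKM in ILC2PBS, with overlapping groups (log2 0.28 ± 0.23, adjusted p = 0.376). It was at 27.8, 31.5 and 23.6 FPKM in ILC210, against 35.5, 38.2 and 36.3 FPKM in ILC2act (log2 -0.42 ± 0.12, adjusted p = 0.0473). Treg cells had 75.5 and 73.7 FPKM in Treg10+, against 80.5 and 86.5 FPKM in Treg10- (log2 -0.16 ± 0.12, adjusted p = 0.644). The ILC2 groups did not overlap with each other, nor did the Treg groups, but both differences were under the fold of 2. *Rgs14* was lower in ILC2act than in Treg10- (log2 -1.19 ± 0.10, adjusted p = 0.000148) and lower in ILC210 than in Treg10+ (log2 -1.44 ± 0.14, adjusted p = 0.000417).

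*Rgs19*, an RZ member that acts on Gi and Gz class subunits, varied least of the 8 across the NextSeq libraries (root mean square of 0.29 on the log2 scale). It was at 41.5 and 46.0 FPKM in ILC2IL-33, against 37.2, 31.4 and 30.5 FPKM in ILC2PBS (log2 0.41 ± 0.17, adjusted p = 0.106). It was at 77.6, 61.0 and 66.7 FPKM in ILC210, against 72.0, 74.8 and 78.8 FPKM in ILC2act (log2 -0.14 ± 0.11, adjusted p = 0.465). The IL-33 and PBS libraries did not overlap, the ILC210 and ILC2act libraries did, and neither difference was called. Treg10+ had 102 and 102 FPKM, against 113 and 99.8 FPKM in Treg10-, with overlap (log2 -0.06 ± 0.13, adjusted p = 0.899). *Rgs19* was lower in ILC2act than in Treg10- by -0.50 ± 0.10 on the log2 scale (adjusted p = 0.00968) and lower in ILC210 than in Treg10+ by -0.58 ± 0.13 (adjusted p = 0.0136), both under the fold of 2.

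Of the 12 other Rgs genes, 7 stayed below 1 FPKM in the mean of every group. *Rgs12*, a large R12 member, was at 10.7 and 14.4 FPKM in ILC2IL-33 against 16.2 to 24.8 FPKM in ILC2PBS (log2 -0.64 ± 0.25, adjusted p = 0.0893). It was at 10.1, 19.4 and 17.3 FPKM in ILC210 against 13.4, 19.1 and 20.3 FPKM in ILC2act, with overlap (log2 -0.20 ± 0.26). In Treg10+ it was at 1.76 and 2.43 FPKM and in Treg10- at 1.18 and 2.23 FPKM, so that it was higher in ILC2act than in Treg10- (log2 3.42 ± 0.32, adjusted p = 0.000235) and in ILC210 than in Treg10+ (log2 2.86 ± 0.32, adjusted p = 0.000712). *Rgs12* therefore lay with *Rgs2* and *Rgs1*, and not with the R12 members *Rgs10* and *Rgs14*, in its order of the cell types.

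*Rgs4*, an R4 member known from brain, heart and vessels, was at 6.47, 1.85 and 3.69 FPKM in ILC210, against 0.282, 0.170 and 0.247 FPKM in ILC2act (log2 1.82 ± 0.40 over the floor, adjusted p = 0.0146 from limma), and it was the 1 family gene called higher there. Every ILC2act value was set to 1 FPKM, so *Rgs4* entered the fit only through ILC210, the group in which it is high. That p-value rests on floored values and is no evidence beyond the levels themselves. *Rgs5*, a pericyte gene, was at 0.311 to 1.05 FPKM in ILC210 and listed at 0 in ILC2act. In the other table *Rgs4* averaged 0.0718 FPKM in ILC2IL-33 and 1.92 FPKM in ILC2PBS, and *Rgs5* 0.0469 FPKM in ILC2IL-33 and 1.94 FPKM in ILC2PBS. The 8 pericyte and smooth muscle markers moved with both genes, with sums of 37.3 to 106 FPKM in ILC210 against 6.18 to 8.07 FPKM in ILC2act, and of 4.26 and 12 FPKM in ILC2IL-33 against 72.0 to 168 FPKM in ILC2PBS, and their part was not tested. *Rgs9* and *Rgs11*, R7 members that pair with G beta 5, did not exceed means of 2.08 and 1.78 FPKM in any group.

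The G alpha partners were led by *Gnas*, the Gs subunit, and *Gnai2*, the main Gi subunit of lymphocytes. *Gnai2* averaged 388 ± 70.6 FPKM in ILC2IL-33 and 419 ± 70.5 FPKM in ILC2PBS, and 521 ± 46.0, 487 ± 33.8, 591 ± 28.6 and 529 ± 13.1 FPKM in ILC210, ILC2act, Treg10+ and Treg10- (SD). Of 13 G alpha genes tested in ILC2IL-33 against ILC2PBS 1 was higher, *Gna15* (log2 1.91, adjusted p = 0.000388), a Gq class subunit of blood cells, at 50.3 ± 2.04 FPKM in ILC2IL-33 and 13.5 ± 2.68 FPKM in ILC2PBS (SD), and 6 were lower, with *Gna11* (log2 -2.40, adjusted p = 0.000555) and *Gnai1* (log2 -2.12, adjusted p = 0.000423) in front. In ILC210 against ILC2act 2 of 12 were higher, *Gna11* (log2 1.56) and *Gnai1* (log2 1.37), and 0 were lower. Over all genes 26.3% were called in ILC2IL-33 against ILC2PBS and 10.3% in ILC210 against ILC2act. *Gna11* and *Gnai1* moved with the alveolar and endothelial sums given above, whose part was not tested.

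Of 10 G beta and gamma genes tested, 3 were lower in ILC2IL-33 than in ILC2PBS and 3 were higher in ILC210 than in ILC2act, in both cases *Gng11*, *Gngt2* and *Gng12*. *Gng11*, a gamma subunit gene, averaged 1.87 FPKM in ILC2IL-33 and 53.4 FPKM in ILC2PBS, and 13.9 FPKM in ILC210 and 1.02 FPKM in ILC2act. Its log2 fold changes of -4.62 and 3.56 stood beside medians of -5.05 and 3.56 over the 10 endothelial markers and of -3.24 and 3.22 over the macrophage markers tested. *Gngt2* and *Gng12* moved in the same directions as those markers, and the part of such cells was not tested. Of 7 receptor kinase and arrestin genes tested, which switch off the receptor rather than the G protein, 2 were lower in ILC2IL-33 than in ILC2PBS (*Adrbk2*, log2 -1.24, and *Grk5*, log2 -1.12) and 0 of 7 were called in ILC210 against ILC2act, where 3 had an unadjusted p under 0.05. Of 15 other G alpha regulators, *Gpsm2* was higher (log2 1.74, adjusted p = 0.00142) and 3 were lower in ILC2IL-33 than in ILC2PBS, and 1 of 14, *Arhgef12*, was higher in ILC210 than in ILC2act (log2 1.46). These 3 lists stood against the same shares of all genes, 26.3% and 10.3%. In Treg10+ against Treg10- limma called 0 genes of these 4 lists, and 2 G alpha genes had an unadjusted p under 0.05.

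Chemoattractant receptors give the signals on which RGS proteins act. Of 23 tested in ILC2IL-33 against ILC2PBS 6 were higher and 6 lower, of 20 in ILC210 against ILC2act 3 were higher and 4 lower, and of 20 in Treg10+ against Treg10- 9 were higher and 1 lower, where 26.3%, 10.3% and 1.37% of all genes were called. *S1pr3*, a sphingosine phosphate receptor gene, was lower in ILC2IL-33 than in ILC2PBS (log2 -2.44) and higher in ILC210 than in ILC2act (log2 2.46), as were the endothelial and macrophage sums, and *C5ar1* and *Cxcr5* were lower in ILC2IL-33 (log2 -2.14 and -2.34). In Treg10+ against Treg10- 5 of 10 macrophage markers were called higher. The part of those cells in the receptor values was not tested. The 6 receptors higher in ILC2IL-33, the 4 lower in ILC210 and those called in Treg cells are not named here. The median log2 fold changes of the receptors tested were 0.31, -0.04 and 0.59, beside -0.06, 0.03 and 0.01 over all genes.

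Genes with the most similar profile were found by the root mean square difference of log2 levels, centred on the gene's own mean, over the 10 NextSeq libraries and 9419 genes. Nearest to *Rgs1* lay *Gpr171* and *Cd69* (0.17 each) and *Bik* (0.20), where *Rgs1* itself varied by 1.55. Nearest to *Rgs2* lay *Bhlhe40* (0.31), *Fos* (0.33) and *Hs3st1* (0.33), beside a variation of *Rgs2* of 3.34. For *Rgs18*, with a variation of 2.07, they were *Lpcat2* (0.35) and *Bmp2* (0.50), and for *Rgs14*, with one of 0.67, *Ubash3a* (0.08), *Shisa5* (0.11) and *Alkbh4* (0.14). *Rgs10* had no gene closer than *Sidt1* (0.28, beside a variation of 0.94). Nearest to *Rgs16* lay *Naip5* (0.20), *Syne3* (0.23) and *Gab3* (0.25), beside 0.72 for *Rgs16* itself, and nearest to *Rgs3* lay *Osbpl9* (0.14), *Sesn1* (0.15) and *Lats2* (0.15), beside 0.48. For *Rgs19*, with 0.29, they were *Terf2ip* (0.05), *Naa30* (0.08) and *Ppil4* (0.08). The libraries of a group share cell type and sorting, so likeness describes these 10 profiles alone.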

How the data were processed

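The authors mapped reads against GRCm38 using TopHat2 2.1.0, and Cufflinks 2.2.1 gave the deposited FPKM per gene (submitters' processing notes). FPKM are normalized for transcript length and mapped reads and hold no counts, so the depth per library is unknown. Steps between the lowest values put relative depth at 0.748 to 1 among the Ion Proton libraries and 0.361 to 1 among the NextSeq libraries, and low values of the shallower ones are the less precise. Of the NextSeq entries, 312 had no estimate and 5 lacked a value and were not used, and 0 is listed there as 0.001.

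The tables were never joined. Values below 1 FPKM were raised to 1, following the study's methods, and log2 values were tested with limma 3.58.1 in R 4.3.3. A gene entered a fit when it exceeded 1 FPKM in a number of libraries no lower than the size of the smaller group. P-values were adjusted by Benjamini-Hochberg over all genes tested. The floor understates the fold changes of low genes. FPKM are not counts, so no count test was used. The fit was tested on simulated data with known changes in genes averaging at least 5 FPKM on the log2 scale. Noise was drawn independently for each library, so that test does not cover genes near the floor or paired libraries.

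The 8 genes and the gene lists were chosen with earlier results of these data known. Named genes were all 8 in every library, every other Rgs gene reaching 1 FPKM in a group mean, up to 3 called genes of largest change and the most abundant gene of each list, and the 3 genes of most similar profile, of which 1 is not reported here. The source field of the Treg samples names lung ILC2, whereas titles, descriptions and methods give spleen Treg cells, which was used. Replicates are pooled experiments, so p-values measure the spread between these libraries. The labels do not say whether consecutive title numbers pair the libraries. Deviations from the group means correlated in each of the 3 such pairs of ILC210 and ILC2act libraries (r = 0.34, 0.26 and 0.16 across 11989 genes), which were taken as paired in an alternative. In the Treg libraries r was 0.38 across 10837 genes. That is a single value, since with 2 libraries a group both pairs must give the same r.

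Coordinates follow the GENCODE annotation of GRCm38, and promoter windows come from RefSeq (GRCm38.p6). Alternatives were other pseudocounts and filters, quantile and median scaling and an equal-variance test per gene on floored FPKM. Others were each library left out, 2 replicate blocks and 1 fit of all 10 NextSeq libraries. Other steps used Python 3.11.15.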

Additional observations from a re-analysis of the deposited data

Results flagged for a closer look

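In the fit of the 10 NextSeq libraries, the change with the *Il10* reporter differed between ILC2 and Treg cells for *Rgs18* by -2.81 ± 0.57 on the log2 scale (SE, adjusted p = 0.0111 from limma). It was at 4.85 to 12.6 FPKM in ILC210 against 24.4 to 46.4 FPKM in ILC2act, lower in each of the 3 ILC210 libraries, and at 1.26 and 2.02 FPKM in Treg10+ against 0.254 and 0.965 FPKM in Treg10-. Both Treg10- values were set to 1 FPKM. The call was lost without Treg10+ library 1, without Treg10- library 1 and with no filter on low values.

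The same difference was 0.88 ± 0.21 for *Rgs11* (adjusted p = 0.0232 from limma), an R7 member outside the 8 genes. *Rgs11* was at 0.129, 0.412 and 1.13 FPKM in ILC210 against 0.0504, 0.200 and 0.273 FPKM in ILC2act, and at 0.575 and 0.336 FPKM in Treg10+ against 1.63 and 1.92 FPKM in Treg10-. Only Treg10- and 1 ILC210 library lay above the floor of 1 FPKM, so this value and its SE rest on floored values, *Rgs11* entered the fit mainly through the group in which it is high, and no difference between the cell types can be read from it. No group had the 4 libraries that a search for a library far from the others needs.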

How the results depend on the processing

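FPKM without counts and groups of 2 or 3 libraries limit what these fits can call, and *Rgs18* in Treg cells lies near the floor of 1 FPKM. Of the alternatives, 131 counts stayed within 1.5 times the reported one and 33 did not, while 621 fold changes kept direction and call, 3 gained a call, 23 lost one and 5 turned sign. With no filter on low values the number of the 8 genes called was 1 in ILC2IL-33 against ILC2PBS, 0 in ILC210 against ILC2act and 0 for the ILC2 minus Treg difference, and all genes called came to 765 in ILC210 against ILC2act and 6 in Treg10+ against Treg10-. The equal-variance test called 1 of the 8 in ILC2IL-33 against ILC2PBS, 0 in ILC210 against ILC2act and 2 in ILC210 against Treg10+. Over all genes it called 444 in ILC2IL-33 against ILC2PBS, 22 in ILC210 against ILC2act, 0 in Treg10+ against Treg10-, 1191 in ILC2act against Treg10- and 547 in ILC210 against Treg10+. With a mean of at least 5 FPKM, which tests fewer genes, the counts were 1881 in ILC2IL-33 against ILC2PBS, 530 in ILC210 against ILC2act, 1204 in ILC2act against Treg10-, 1389 in ILC210 against Treg10+ and 533 for the ILC2 minus Treg difference. In Treg10+ against Treg10-, where 148 genes were called as reported, log2(FPKM + 1) gave 231 and the fit of all 10 libraries 262.

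Leaving out each library in turn gave 1 to 3 of the 8 called and 2347 to 3525 of all genes in ILC2IL-33 against ILC2PBS, 1 of the 8 and 695 to 1137 in ILC210 against ILC2act, 0 to 1 and 163 to 391 in Treg10+ against Treg10-, and 0 to 2 and 762 to 1432 for the ILC2 minus Treg difference. In Treg10+ against Treg10- it gave -0.50 to 0.0447 for *Rgs1* and -0.15 to 0.0304 for *Rgs19* on the log2 scale, and for the ILC2 minus Treg difference -0.0609 to 0.30 for *Rgs10* and -0.18 to 0.0086 for *Rgs19*. Equal medians turned the *Rgs10* difference to -0.0231. The cause of these shifts was not tested.

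With the replicate block by title numbers, *Rgs18* in ILC210 against ILC2act had an adjusted p of 1.32e-05 (limma), 1269 of all genes were called against 1190 without it, and no other call among the 8 changed. In the Treg pairs the block raised the count of all genes to 434, and *Rgs10* had an adjusted p of 2.42e-06 at -0.93, still under the fold of 2.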
